A study of Mus musculus with 13 samples.

Results

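The 9 genes described here are Mitf, the regulator of the melanocyte lineage, and 8 transcription factors of mesenchymal and neural crest cells: Sox9, Snai1, Snai2, Twist1, Twist2, Zeb1, Zeb2 and Prrx1. They are a list of names that uses no threshold on measured values, and are 9 of 35498 genes to which the quantified transcripts belonged. All 9 passed the filter on low counts, as did 13044 genes in all.

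The 13 libraries are poly(A) RNA from cell lines labelled as mouse melanoma and kept in culture, with doxycycline put into the medium to induce a construct. In the NLS lines that construct is sAC directed to the nucleus. The soluble cyclase sAC produces cyclic AMP inside the cell. The groups were NLS t0 (no doxycycline), NLS t6 (doxycycline for 6 h) and NLS t48 (48 h), with 3 libraries each from cell lines 6, 7 and 16, and LacZ t48 and LacZ t0, with 2 libraries each from the control cell lines 10 and 12. All groups share the melanoma label and the culture. At t48 both constructs share doxycycline, so LacZ t48 against LacZ t0 carries the drug without sAC, by the titles. The domain tag of LacZ t48 reads nuclear, against those titles, and the titles were used. The tag of both t0 groups reads none. Beyond melanoma, the labels name no genotype, strain or origin of the lines. None of the LacZ libraries used here is labelled t6, so in NLS t6 doxycycline and sAC cannot be told apart. Nothing says that libraries of 1 line came from separate cultures, so each p-value rests on library-to-library spread, which may be partly technical.

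Mitf is a basic helix-loop-helix leucine zipper factor that switches on pigment and survival genes of melanocytes. Its gene has several promoters: the distal 1A promoter is used in many cell types, while the 1M promoter is used in melanocytes and melanoma and carries a cyclic AMP response element (CRE) through which CREB acts. Snai, Zeb and Twist factors repress epithelial genes such as Cdh1, and Sox9 and Prrx1 act in cartilage, limb and craniofacial mesenchyme. In human melanoma, cells with little MITF often carry mesenchymal factors, and ZEB1 and TWIST1 are known for the dedifferentiated state where ZEB2 and SNAI2 are known for the differentiated one.

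Depth was 18512887 to 22584628 estimated reads per library. Levels are given in CPM, the reads of a gene scaled to the library total after that total was adjusted by its TMM normalization factor. Adcy10, the gene of sAC, did not follow the time labels. In the NLS lines it stood at 339 to 371 CPM in the libraries of line 6 and at 181 to 200.4 CPM in those of line 7, whether labelled t0, t6 or t48. In line 16 it stood at 0.671 to 1.22 CPM, and in the LacZ libraries at up to 0.167 CPM. The line number held 99.6% of its variation in the NLS libraries and the time label 0.0851%. The sequence of the introduced sAC is not given in the sources used here, so whether these reads cover it was not tested. The names t0, t6 and t48 stand for the libraries labelled so.

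Markers of other cells bear on the labelled identity. Of 8 melanocyte markers only Pax3 reached 1 CPM, at 40.3 to 90.3 CPM. Tyr stood at 0.167 to 0.933 CPM, Sox10 and Mlana at most at 0.0512 and 0.0499 CPM, and Tyrp1 was at 0 in all 13 libraries, so the defining markers of pigmented melanocytes were at or near 0. Of 8 fibroblast markers 6 reached 1 CPM. Their summed level was 9999 to 12166 CPM in NLS t0, 7792 to 9439 CPM in NLS t6 and 15978 to 17071 CPM in NLS t48, and 7129 to 7517 CPM in LacZ t48 and 8070.2 to 8219 CPM in LacZ t0. Col1a1, Col1a2 and Col3a1 held most of it, while Lum and Thy1 reached at most 0.0536 and 0.0942 CPM. The part of this shift in the results below was not tested. Of the leukocyte and epithelial markers, Ptprc reached 0.0512 CPM, Cdh1 0.144 CPM and Epcam 0.14 CPM, and Cd68 stood at 5.64 to 14.1 CPM. In these bulk libraries fewer cells of a type and less RNA per cell cannot be told apart.

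Set per length, in TPM, the factors of the mesenchymal group stood far above Mitf. Over 13 libraries Snai1 averaged 81.3 TPM (61.4 to 92.5 over libraries), Zeb1 71.3 TPM (48 to 95.1), Prrx1 63.8 TPM (53.8 to 83.2), Snai2 48.6 TPM (35.7 to 74.4) and Twist1 39.8 TPM (29.2 to 47.8). Twist2 averaged 20.7 TPM (11.8 to 27.3), Sox9 20.6 TPM (15.6 to 29.1), Zeb2 17.5 TPM (13.6 to 20.9) and Mitf 1.97 TPM (1.2 to 2.75). The ranges over libraries overlapped between each neighbour in this order, except between Twist1 and Twist2 and between Zeb2 and Mitf. Snai1 lay above 83.6% of the tested genes and Mitf above 16.4%. These values sum all transcripts of a gene, and for Zeb1 protein-coding ones held 70.1 to 79.3% of the reads.

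**Figure D1:**
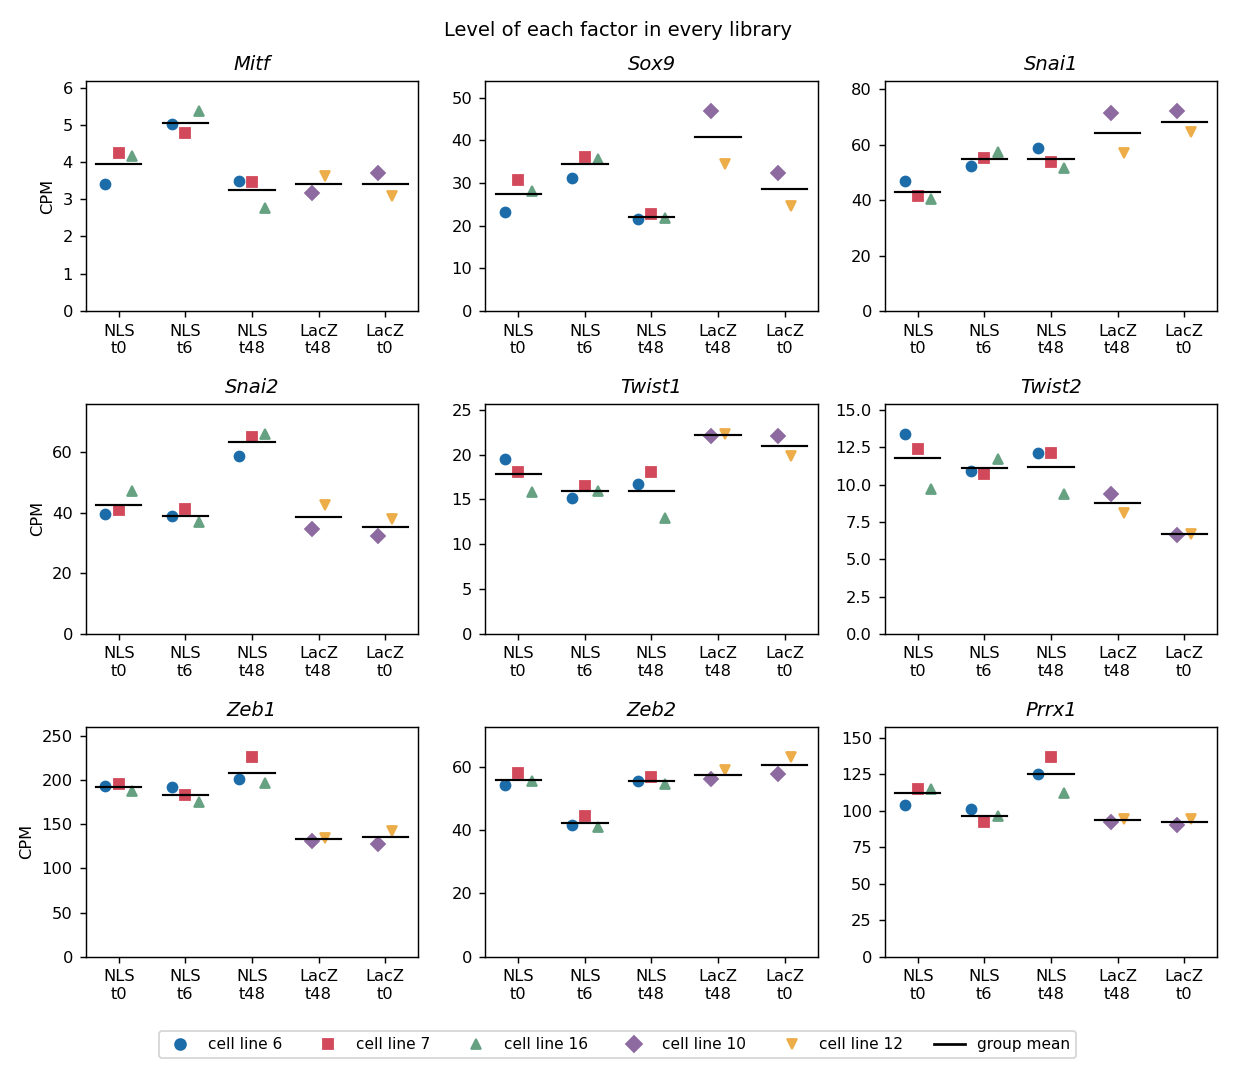
Level of each factor in CPM for every library, with a point per cell line, in the order NLS t0, NLS t6, NLS t48, LacZ t48, LacZ t0. The line is the group mean. The 3 NLS t6 points of Zeb2 lie between 40.9 and 44.3 CPM, below all others, and the 3 NLS t48 points of Snai2 lie between 58.7 and 65.9 CPM, above all others.

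Most Mitf reads were given to transcripts from the distal first exon, while shares corrected for transcript length were less one-sided. The gene (ENSMUSG00000035158, GRCm38 chromosome 6, 97807052 to 98021349, plus strand) has 8 annotated transcripts, of which 6 had reads. Of 1039 Mitf reads over all libraries, 930 (89.5%) were given to transcripts that start at exon 1A, 87 (8.37%) to the melanocyte exon 1M and 22 (2.12%) to a transcript that starts at exon 1B. Of the 1M reads, 80 were given to Mitf-208, a 1074-base transcript annotated from 97991921, downstream of the Mitf-201 start at 97991792. Mitf-201 had 5 reads and Mitf-205 had 2, each in 1 library. Mitf-202, from exon 1A, alone held 847 reads (81.5%) and was found in 13 of 13 libraries. Mitf-202 is also the longest transcript. Its end reaches 2642 bases beyond every other Mitf transcript, 54.1% of its length, so that reads there can be given only to Mitf-202. By TPM, which corrects for length, the share from exon 1A was 33.0% in NLS t48 of line 16 and 35.9% in NLS t0 of line 6, the lowest of the 13 libraries. In 6 of 13 libraries the TPM share lay outside the exact interval of the read share.

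The windows at the 1A and 1M starts are shown because the share of reads between them is the readout. The annotated starts of Mitf-202 (1A) and Mitf-201 (1M) lie 184734 bases apart. Both windows are RefSeq promoters (GRCm38.p6) on the plus strand, from 250 bases before the RefSeq start to 50 after it. They lie at chr6:97806808-97807107 and chr6:97991533-97991832. Capitals mark the full CRE, TGACGTCA, at position -153 from the RefSeq start of the 1M window, which is not the Mitf-201 start (97991792).
Mitf 1A promoter: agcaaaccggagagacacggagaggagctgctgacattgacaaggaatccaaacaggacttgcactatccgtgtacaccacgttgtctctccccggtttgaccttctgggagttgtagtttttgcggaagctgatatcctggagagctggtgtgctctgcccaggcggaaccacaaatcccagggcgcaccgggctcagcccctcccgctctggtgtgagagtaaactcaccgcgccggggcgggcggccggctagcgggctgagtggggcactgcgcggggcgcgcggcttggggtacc
Mitf 1M promoter: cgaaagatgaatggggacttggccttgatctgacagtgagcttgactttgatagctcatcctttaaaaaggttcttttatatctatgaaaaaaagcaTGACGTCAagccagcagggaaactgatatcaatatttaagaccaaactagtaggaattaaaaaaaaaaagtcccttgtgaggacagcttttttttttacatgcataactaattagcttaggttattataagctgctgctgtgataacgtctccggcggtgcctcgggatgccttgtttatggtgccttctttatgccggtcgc
Of 32851 promoter windows of the same length, 588 (1.79%) hold these 8 letters on either strand. The 1A window does not hold them, nor does the window at the intermediate start at chr6:97929567-97929866. The shorter CRE core TGACG, which is part of the full site, occurs in 20.8% of windows. A match is a description of the letters only.

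The share of Mitf reads from exon 1M ranged from 0 to 36.5% over the NLS libraries and from 0 to 11.6% over the LacZ libraries. In NLS t0 it was 10 of 77 reads (13%, exact 95% interval 6.41 to 22.6%) in line 6, 16 of 97 (16.5%, 9.73 to 25.4%) in line 7 and 0 of 87 in line 16, where 0 allows a share of up to 3.45%. Limits for 0 reads in this paragraph are 3 reads over the Mitf total, not exact intervals. In NLS t6 it was 15 of 106 (14.2%, 8.14 to 22.3%) in line 6, 5 of 92 (5.43%, 1.79 to 12.2%) in line 7 and 0 of 117 (up to 2.56%) in line 16. In NLS t48 it was 12 of 74 (16.2%, 8.67 to 26.6%) in line 6, 0 of 78 (up to 3.85%) in line 7 and 19 of 52 (36.5%, 23.6 to 51.0%) in line 16. The 3 lines did not share an order of the time labels. In LacZ t48 it was 0 of 57 (up to 5.26%) in line 10 and 2 of 71 (2.82%, 0.343 to 9.81%) in line 12, and in LacZ t0 8 of 69 (11.6%, 5.14 to 21.6%) and 0 of 62 (up to 4.84%). The transcript at exon 1B had reads in 1 library, NLS t0 of line 6. Shares of TPM from exon 1M reached 67.0%, in NLS t48 of line 16. The intervals cover counting error only, and reads are divided among transcripts by the quantification model, which adds error that they leave out. Mitf-207, from exon 1A, had reads in 5 libraries and Mitf-208, from exon 1M, in 6, and no library had reads on both. In line 16, Mitf-207 held 25 reads and Mitf-208 0 in NLS t0, against 0 and 19 in NLS t48. The limits for 0 reads do not cover such a division either. Its part in the 1M shares was not tested.

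Mitf-207 and Mitf-208 lack an 18-base stretch at the start of exon 6 (counted in Mitf-201), a known alternative splice of Mitf. It is shown with 24 bases of coding sequence on each side, with the 18 bases at chr6:98006123-98006140 (GRCm38, plus strand) in capitals.
Mitf 18-base stretch: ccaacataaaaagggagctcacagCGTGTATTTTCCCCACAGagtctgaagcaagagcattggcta
Transcripts without it held up to 36.5% of the Mitf reads of a library, and 2 libraries had no read on them. Over single transcripts, 40403 of which were tested, none of Mitf or Prrx1 was called in any comparison by edgeR.

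**Figure D2:**
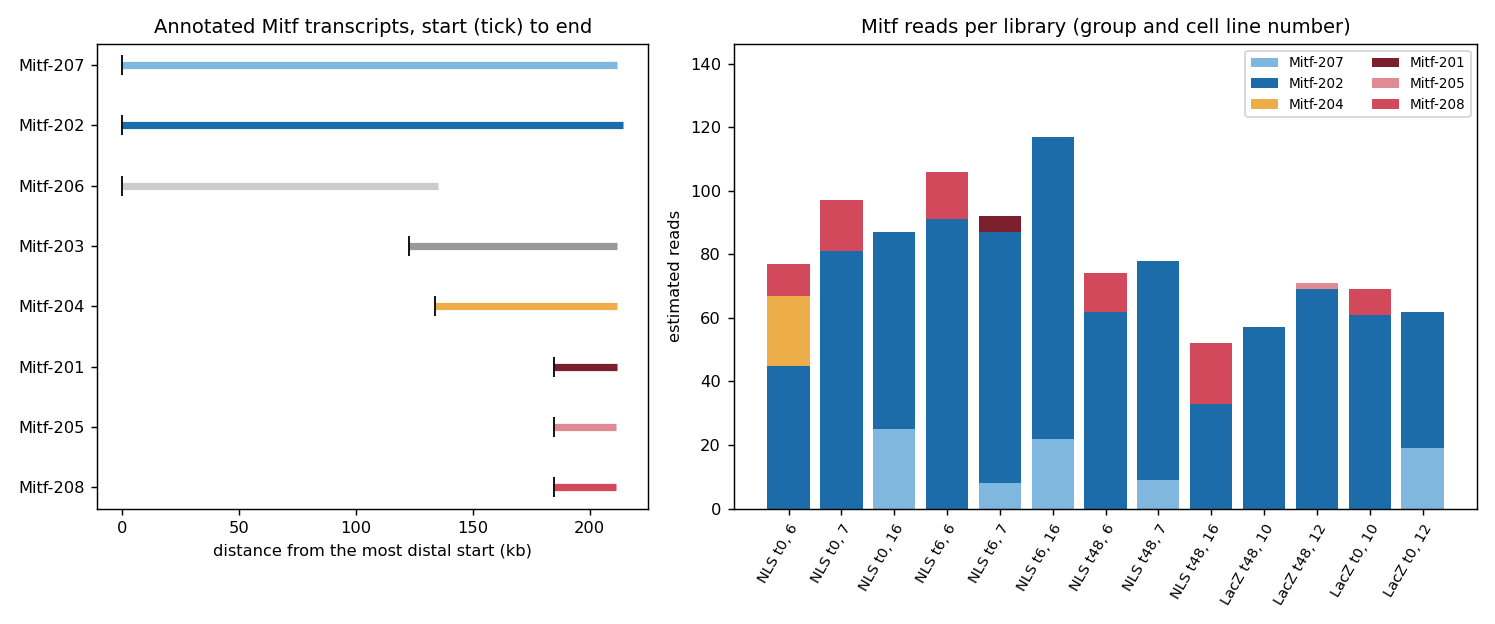
Left, the 8 annotated Mitf transcripts from start (tick) to end, by distance in kb from the most distal start. Right, the estimated Mitf reads of each library, stacked by transcript, by group and cell line number. Mitf-202 is the largest stack in 13 of 13 libraries, and the highest total is 117 reads.

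Time labels in the NLS lines were compared next. A gene is called here when its edgeR p, adjusted over all genes tested by the Benjamini-Hochberg method, is below 0.05. In NLS t6 against NLS t0, 2 of 9 members were called (Snai1 higher, Zeb2 lower), where 20.8% of all genes tested were called. In NLS t48 against NLS t0, 2 were called, both higher (Snai1, Snai2), where 26.1% of genes were called. These 2 comparisons share the NLS t0 libraries. In NLS t48 against NLS t6, 6 were called, with Snai2, Zeb1, Zeb2 and Prrx1 higher and Mitf and Sox9 lower, where 28.2% of genes were called. The median log2 change of the 9 was -0.09, -0.01 and 0.01 in that order, against -0.00, -0.01 and 0.00 over all genes. In LacZ t48 against LacZ t0, 1 member (Sox9) was called, where 18.5% of genes were called.

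**Figure D3:**
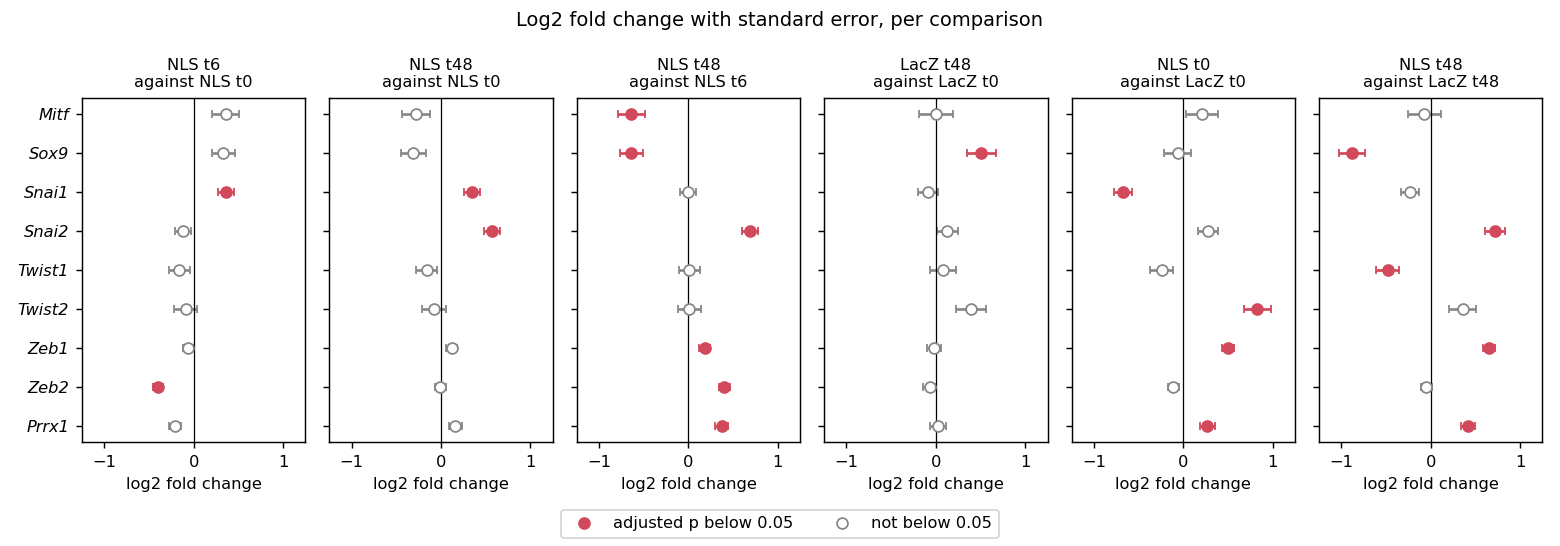
Log2 fold change of each factor, with its standard error, in 6 comparisons, with the first-named group over the second. Filled points have an adjusted p below 0.05. Most called points lie in NLS t48 against NLS t6, with 6, and in NLS t48 against LacZ t48, with 5.

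Mitf was highest in NLS t6 when given in CPM. It stood at 3.41, 4.23 and 4.17 CPM in NLS t0 in lines 6, 7 and 16, at 5.01, 4.77 and 5.37 CPM in NLS t6, and at 3.48, 3.47 and 2.76 CPM in NLS t48. In CPM the t6 libraries lay above all others of the NLS lines. In TPM the groups overlapped, with NLS t6 of line 7 at 2.1 TPM, NLS t0 of line 7 at 2.37 TPM and NLS t48 of line 16 at 2.16 TPM. In NLS t48 Mitf was lower than in NLS t6 by a log2 change of -0.64 ± 0.15 (SE, adjusted p = 0.00684). Neither NLS t6 (0.36 ± 0.15, adjusted p = 0.11) nor NLS t48 (-0.28 ± 0.16, adjusted p = 0.211) passed the test against NLS t0. The t48 against t6 call was lost with counts scaled for transcript length (adjusted p = 0.154) and without cell line 16 (adjusted p = 0.106). Mitf was 3.17 and 3.63 CPM in LacZ t48, against 3.7 and 3.1 CPM in LacZ t0, with a change of 0.00 ± 0.19 (adjusted p = 0.997).

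Sox9 (chromosome 11, 112782224 to 112787760), an HMG-box factor of cartilage and neural crest, moved like Mitf between t6 and t48. Its level was 23.2, 30.8 and 28.2 CPM in NLS t0 in lines 6, 7 and 16, 31.3, 36.1 and 35.7 CPM in NLS t6, and 21.6, 22.7 and 21.8 CPM in NLS t48. The 3 groups did not overlap, with t48 lowest and t6 highest. Between t48 and t6 the change was -0.64 ± 0.13 (adjusted p = 0.00321), and without cell line 16 the adjusted p was 0.0553. Against NLS t0 neither t6 (0.33 ± 0.13, adjusted p = 0.101) nor t48 (-0.31 ± 0.14, adjusted p = 0.108) was called. With the cell line number as a block both were, at adjusted p = 0.000861 and 0.00168. The t48 value also passed without NLS t0 of line 6 (adjusted p = 0.0462) and with counts scaled for length (0.0453).

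In the LacZ lines Sox9 went the other way. It was 46.9 and 34.5 CPM in LacZ t48, against 32.4 and 24.7 CPM in LacZ t0, for cell lines 10 and 12, so that each line was higher at t48 while the groups overlapped. The change was 0.51 ± 0.16 (adjusted p = 0.0449). It was lost without LacZ t48 of line 10 (adjusted p = 0.341), without LacZ t0 of line 12 (0.292), without either line (0.167 and 0.0986) and in a fit of the LacZ libraries alone (0.139).

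Snai1 (chromosome 2, 167538195 to 167542814), a zinc finger repressor of Cdh1, was higher in NLS t6 and NLS t48 than in NLS t0. It stood at 46.9, 41.4 and 40.4 CPM in NLS t0 (lines 6, 7, 16), 52.2, 55.4 and 57.5 CPM in NLS t6, and 58.7, 53.9 and 51.6 CPM in NLS t48. No t0 library reached a t6 or t48 library. The change was 0.36 ± 0.09 at t6 (adjusted p = 0.0126) and 0.35 ± 0.09 at t48 (adjusted p = 0.0112). The t6 call was lost without NLS t0 of line 16 (adjusted p = 0.06), without line 16 (0.161) and without line 7 (0.088). The t48 call was lost without NLS t0 of line 16 (0.0526), without NLS t48 of line 6 (0.0639), and without line 6 (0.0589), 7 (0.075) or 16 (0.0646). In LacZ t48 Snai1 was 71.5 and 57.2 CPM, against 72.2 and 64.5 CPM in LacZ t0, a change of -0.09 ± 0.11 (adjusted p = 0.627).

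Snai2 (chromosome 16, 14705852 to 14709385), a relative of Snai1 and a neural crest factor, was higher in NLS t48 than in both other NLS groups. It stood at 39.6, 40.8 and 47.2 CPM in NLS t0, 39.0, 41.1 and 37.0 CPM in NLS t6 and 58.7, 64.8 and 65.9 CPM in NLS t48. The t48 libraries lay above all t0 and t6 libraries, while t0 and t6 overlapped. Snai2 rose by 0.57 ± 0.09 against t0 (1.49-fold, adjusted p = 0.00058) and by 0.69 ± 0.09 against t6 (1.62-fold, adjusted p = 0.000113). At t6 against t0 it gave -0.12 ± 0.09 (adjusted p = 0.402). Both calls were kept in every left-out library and line, with the highest adjusted p at 0.0165. In LacZ t48 it was 34.4 and 42.4 CPM, against 32.3 and 37.8 CPM in LacZ t0 (0.13 ± 0.12, adjusted p = 0.487).

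Zeb2 (chromosome 2, 44983632 to 45117395) and Zeb1 are large zinc finger repressors, and only Zeb2 was called between NLS t6 and NLS t0. Zeb2 was 54.2, 58.0 and 55.6 CPM in NLS t0, 41.7, 44.3 and 40.9 CPM in NLS t6 and 55.6, 56.8 and 54.5 CPM in NLS t48. The t6 libraries lay below all others of the series. Zeb2 fell by 0.40 on the log2 scale at t6 against t0 (SE 0.06, adjusted p = 0.000321) and rose by 0.40 at t48 against t6 (SE 0.06, adjusted p = 0.000204). At t48 against t0 it gave -0.01 ± 0.06 (adjusted p = 0.941). The 2 called changes were kept in every left-out library and line (highest adjusted p 0.0138). Zeb1 was 193, 195 and 187 CPM in NLS t0, 192, 183 and 175 CPM in NLS t6 and 201, 226 and 197 CPM in NLS t48. All t48 libraries lay above all t0 and t6 ones, while t0 and t6 overlapped.

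The Zeb1 change was 0.18 ± 0.06 at t48 against t6 (adjusted p = 0.0443) and 0.12 ± 0.06 at t48 against t0 (adjusted p = 0.184, and 0.0494 with the line number as a block). The t48 against t6 call was lost without NLS t48 of line 7 (adjusted p = 0.185), NLS t6 of line 16 (0.144) or NLS t6 of line 7 (0.0993), without line 6 (0.0705), 7 (0.227) or 16 (0.116), with no filter on low counts (0.0691) and in a fit of the compared libraries alone (0.0726). Between LacZ t48 and LacZ t0, Zeb1 gave -0.02 ± 0.08 and Zeb2 -0.07 ± 0.07 (adjusted p = 0.88 and 0.524).

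Prrx1 (chromosome 1, 163245119 to 163313710), a homeobox factor of limb and craniofacial mesenchyme, stood at 104, 115 and 115 CPM in NLS t0, 101, 92.4 and 96.4 CPM in NLS t6 and 125, 137 and 112 CPM in NLS t48. The t6 libraries lay below all of t0 and t48. It rose at t48 against t6 by 0.37 ± 0.07 (adjusted p = 0.0014), kept in every left-out library and line. At t6 against t0 it gave -0.21 ± 0.07 (adjusted p = 0.051), which passed with the line number as a block (0.0228), with DESeq2 (0.0337), with DESeq2 size factors in edgeR (0.0469), with no filter (0.044) and without NLS t0 of line 6 (0.0349). At t48 against t0 it gave 0.16 ± 0.07 (adjusted p = 0.104), which passed without NLS t48 of line 16 (0.0299) or line 16 (0.046). In LacZ t48 it was 92.6 and 94.7 CPM, against 90.6 and 94.5 CPM in LacZ t0 (0.02 ± 0.09, adjusted p = 0.922). Reads of Prrx1 were shared among 4 transcripts, so the gene sum is used. Prrx1-202 (0 to 1268 reads) and Prrx1-201 (675 to 1361 reads) held 0 to 41.1% and 27.7 to 65.7% of a library's Prrx1 reads. Prrx1-205, not annotated as protein coding, held 17.1 to 25.1%, and Prrx1-204 held 8.52 to 13.2%.

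Twist1 (chromosome 12, 33957671 to 33959829) and Twist2 (chromosome 1, 91801461 to 91848028), helix-loop-helix factors of mesoderm and neural crest, passed no test among the time labels of the NLS lines. Twist1 was 15.8 to 19.5 CPM in NLS t0, 15.2 to 16.5 CPM in NLS t6 and 12.9 to 18.1 CPM in NLS t48, with log2 changes of -0.16 ± 0.12 at t6 and -0.16 ± 0.12 at t48 against t0. Twist2 was 9.73 to 13.4 CPM in NLS t0, 10.7 to 11.7 CPM in NLS t6 and 9.35 to 12.1 CPM in NLS t48, with changes of -0.09 ± 0.13 and -0.08 ± 0.13. The groups overlapped in each case. At LacZ t48 against LacZ t0 Twist2 was 9.39 and 8.09 CPM, against 6.65 and 6.69 CPM (0.39 ± 0.17, adjusted p = 0.133).

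The NLS and LacZ lines were compared at t0 and at t48. Here each construct is also a set of cell lines, so construct and line cannot be told apart, and no fit with the line number as a block can be had. At t0, 4 of 9 members were called, with Twist2, Zeb1 and Prrx1 higher and Snai1 lower in the NLS lines, where 43.5% of all genes tested were called. At t48, 5 were called, with Snai2, Zeb1 and Prrx1 higher and Sox9 and Twist1 lower in the NLS lines, where 45.1% of genes were called.

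Zeb1 was higher in the NLS lines at both times. It was 187 to 195 CPM in NLS t0, against 128 and 142 CPM in LacZ t0 (0.50 ± 0.07, adjusted p = 6.85e-05). At t48 it was 197 to 226 CPM in NLS, against 131 and 134 CPM in LacZ (0.65 ± 0.07, adjusted p = 6.7e-06). No library of the NLS lines overlapped one of the LacZ lines at either time. Zeb2 was not called at either time, with -0.11 ± 0.06 (adjusted p = 0.175) and -0.05 ± 0.06 (0.586), though the t0 value passed with counts scaled for length (0.0309). The Zeb1 to Zeb2 ratio of TPM was 4.01 to 4.31 in NLS t0, 5.16 to 5.63 in NLS t6 and 4.39 to 4.99 in NLS t48, and 2.71 to 2.85 in LacZ t48 and 2.84 to 3.03 in LacZ t0. All 9 NLS libraries thus lay above all 4 LacZ libraries, with the highest ratios in NLS t6. The ratio counts all transcripts of each gene. Protein-coding ones held 70.1 to 79.3% of the Zeb1 reads of a library and 99.1 to 99.9% of the Zeb2 reads.

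Snai1, Snai2, Twist1, Twist2 and Sox9 were each called at 1 of the times, Prrx1 at both and Mitf at neither. Snai1 was 40.4 to 46.9 CPM in NLS t0, against 64.5 and 72.2 CPM in LacZ t0 (-0.67 ± 0.10, adjusted p = 0.000103). At t48 it was 51.6 to 58.7 CPM in NLS, against 57.2 and 71.5 CPM in LacZ (-0.23 ± 0.10, adjusted p = 0.0721, and 0.0135 and 0.0152 without LacZ t48 of line 12 or all of line 12). Snai2 was 39.6 to 47.2 CPM in NLS t0, against 32.3 and 37.8 CPM in LacZ t0 (0.28 ± 0.11, adjusted p = 0.0517). That value passed without LacZ t0 of line 12 (0.0415), NLS t0 of line 6 (0.0362) or 7 (0.0499), without line 12 (0.0243), with DESeq2 (0.0412), with its size factors (0.0461) and with no filter (0.0316). At t48 Snai2 was 58.7 to 65.9 CPM in NLS, against 34.4 and 42.4 CPM in LacZ (0.72 ± 0.11, adjusted p = 0.000108). The Snai2 to Snai1 ratio of TPM was 0.58 to 0.844 in NLS t0, 0.479 to 0.516 in NLS t6, 0.689 to 0.974 in NLS t48, 0.409 to 0.543 in LacZ t48 and 0.391 to 0.477 in LacZ t0.

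Twist2 was 9.73 to 13.4 CPM in NLS t0, against 6.65 and 6.69 CPM in LacZ t0 (0.83 ± 0.15, 1.77-fold, adjusted p = 0.000695). At t48 it was 9.35 to 12.1 CPM in NLS, against 8.09 and 9.39 CPM in LacZ (0.36 ± 0.15, adjusted p = 0.0677, and 0.0196 and 0.00893 without NLS t48 of line 16 or all of line 16). Twist1 was 12.9 to 18.1 CPM in NLS t48, against 22.1 and 22.3 CPM in LacZ t48 (-0.48 ± 0.13, adjusted p = 0.00763, and 0.0521 and 0.0513 without line 10 or 12). At t0 Twist1 gave -0.24 ± 0.13 (adjusted p = 0.152). Prrx1 was 104 to 115 CPM in NLS t0, against 90.6 and 94.5 CPM in LacZ t0 (0.27 ± 0.08, adjusted p = 0.0143). This was lost without LacZ t0 of line 10 (0.106) and without line 10 (0.111) or 12 (0.0554). At t48 Prrx1 was 112 to 137 CPM in NLS, against 92.6 and 94.7 CPM in LacZ (0.42 ± 0.08, adjusted p = 0.000769). Sox9 was 21.6 to 22.7 CPM in NLS t48, against 34.5 and 46.9 CPM in LacZ t48 (-0.88 ± 0.15, adjusted p = 0.000323). At t0 it gave -0.06 ± 0.15 (adjusted p = 0.791). Mitf gave 0.21 ± 0.18 at t0 and -0.07 ± 0.18 at t48 (adjusted p = 0.353 and 0.782).

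The difference of the t48 responses between the constructs was tested directly. It was called for 2 of 9 members, Sox9 and Snai1, where 23.3% of all genes tested were called. Sox9 gave -0.83 ± 0.21 (adjusted p = 0.014), with a t48 change of -0.31 in the NLS lines and 0.51 in the LacZ lines. Snai1 gave 0.44 ± 0.14 (adjusted p = 0.0387), from 0.35 in the NLS lines and -0.09 in the LacZ lines. The Sox9 call was lost without LacZ t0 of line 12 (adjusted p = 0.0698), LacZ t48 of line 10 (0.0691), line 7 (0.0589) or line 16 (0.0678). The Snai1 call was lost without each of the 5 lines (adjusted p 0.0568 to 0.167). It was lost without LacZ t48 of line 12 (0.205), LacZ t0 of line 10 (0.161), NLS t48 of line 6 (0.0977) or 7 (0.0532) and NLS t0 of line 7 (0.0586) or 16 (0.0819), with counts scaled for length (0.166) and in a fit of the compared libraries alone (0.0536). Snai2 gave 0.44 ± 0.15 (adjusted p = 0.0501, and 0.00273 with the line number as a block). It passed without LacZ t48 of line 12 (0.0245), LacZ t0 of line 10 (0.0434) or NLS t0 of line 16 (0.0252), with DESeq2 (0.0414) and with no filter (0.0359). Zeb1 (0.14 ± 0.10, adjusted p = 0.336) passed with counts scaled for length (0.0332), and Twist2 (-0.47 ± 0.21, adjusted p = 0.132) without NLS t0 of line 16 (0.0476).

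The variation among the NLS libraries was split between the time label and the line number, as a description. The time label held 95.9% of the variation of log2 CPM for Zeb2, 92.7% for Snai2, 84.0% for Sox9, 82.3% for Snai1, 80.9% for Mitf, 76.4% for Prrx1 and 59.3% for Zeb1. For Twist1 and Twist2 it held 22.5% and 5.66%, and the line number 43.0% and 43.9%. The median over all tested genes was 56.4% for the time label and 19.5% for the line number. Adcy10 stood the other way round, as given above.

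**Figure D4:**
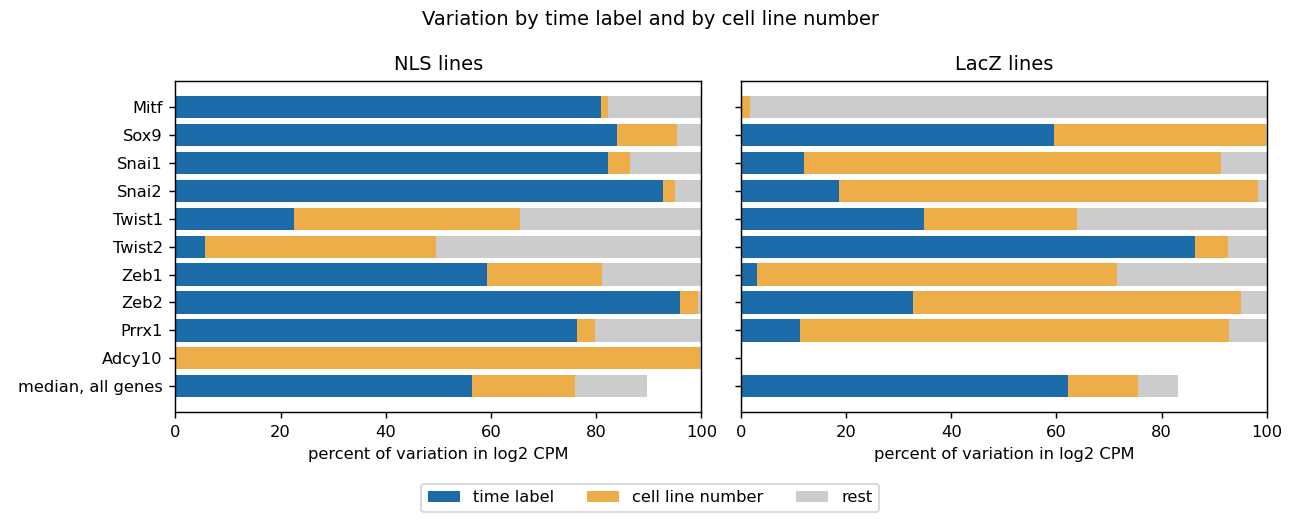
Percent of the variation in log2 CPM held by the time label, the cell line number and the rest, in the 9 NLS and the 4 LacZ libraries. The last bar is the median of each part over all tested genes, so its parts need not sum to 100. In the NLS lines the time label is the widest part for 7 of 9 factors, and the line number fills the Adcy10 bar, which is drawn for the NLS lines only.

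Between cell lines of the same construct, with the time label as a block, at most 1 member was called in each comparison. Line 7 against line 16 called 0 of 9 members with edgeR (22.6% of all genes tested were called), with 2 at an unadjusted p below 0.05 and 0 with DESeq2. Without NLS t6 of line 16, Twist1 (0.24 ± 0.09, adjusted p = 0.0766) and Twist2 (0.19 ± 0.11, 0.233) passed, at 0.022 and 0.0342. Line 6 against line 16 called 0 (2.26% of genes), with 3 at an unadjusted p below 0.05 and 0 with DESeq2. Line 7 against line 6 called 1 (11.1% of genes), Sox9 at 0.23 ± 0.07 (adjusted p = 0.0336). That call was lost without NLS t0 of line 6 (0.205) or 7 (0.232), without NLS t6 of line 6 (0.0835) or 7 (0.0605), with DESeq2 (0.17), with counts scaled for length (0.288) and with no time label term (1.0). LacZ line 12 against line 10 called 0 (0.123% of genes), with 3 at an unadjusted p below 0.05 and 0 with DESeq2. Sox9 gave -0.42 ± 0.08 there (adjusted p = 0.0505, and 0.0148 with no filter).

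The 3 genes whose log2 CPM was most like each member's over the 13 libraries were looked up among 10340 genes. All values come from the same libraries and depths, and no p is given. For Mitf these were Mfsd14b (r = 0.9), Cgas and Ppwd1. For Sox9 they were Uhrf1 (r = 0.954), Dnmt1 and Chaf1a, genes of DNA methylation and chromatin assembly in dividing cells. For Snai1 they were Hoxb13, Nucb1 and Mex3d, and for Snai2 Esf1, Dgat2 and Stat3. For Zeb1 the nearest was Cryzl1 (r = 0.989), for Zeb2 Pmpca (r = 0.963), with Mmp2 next (r = 0.952), and for Prrx1 Fam114a1 (r = 0.955). Twist1 and Twist2 had Gnpda2 (r = 0.898) and Ppat (r = 0.95).

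Genes linked to the members by role were counted in 9 lists, beside the shares of all genes called that are given above and medians of all genes within 0.02 of 0 on the log2 scale. Of 26 pigment and melanocyte genes that Mitf activates, 12 could be tested. In NLS t6 against t0, 3 were higher and 0 lower, with a median log2 change of -0.00. Gpnmb, a glycoprotein of melanosomes and lysosomes, was 24.6 ± 0.943 CPM in NLS t6 and 5.13 ± 1.04 CPM in NLS t0 (SD, n = 3 each), a log2 change of 2.26 ± 0.15 (SE, adjusted p = 4.14e-07). Rab27a, which carries melanosomes to the cell edge, was 1.69 ± 0.339 CPM, against 0.448 ± 0.116 CPM (1.90 ± 0.31, adjusted p = 0.000913). In NLS t48 against t0, 2 were higher and 3 lower (median -0.08), and Met, the receptor of hepatocyte growth factor, gave -0.96 ± 0.15 (adjusted p = 0.000949). In LacZ t48 against t0, 5 were higher and 3 lower, with Gpnmb at 1.02 ± 0.18 (adjusted p = 0.00179, and 0.0857 without line 12).

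Of 17 regulators of Mitf and of neural crest fate, 12 were tested. At NLS t6 against t0, 3 were higher and 1 lower, and at t48 against t0, 5 were higher and 0 lower (medians 0.22 and 0.23). Lef1, which acts in Wnt signalling and at the 1M promoter, was 7.44 ± 0.693 CPM in NLS t6 and 1.79 ± 0.38 CPM in NLS t0 (2.06 ± 0.17, adjusted p = 3.53e-06). At t48 against t6 it gave -1.51 ± 0.17 (adjusted p = 1.92e-05). In LacZ t48 against t0, 2 were higher and 6 lower (median -0.26). In the difference of the t48 responses, 7 of 12 were higher and 0 lower, with Zfp36l1 at 2.05 ± 0.18 (adjusted p = 4.75e-06). In NLS t0 against LacZ t0, Lef1 gave -2.55 ± 0.18 (adjusted p = 1.27e-07). Of 20 genes of the MiT/TFE family and of lysosomes, 19 were tested, and 5 were higher and 0 lower at NLS t6 and 4 and 0 at t48, against t0. Gpnmb belongs to this list as well as to the pigment list.

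Of 24 epithelial genes that Snai, Zeb and Twist factors repress, 4 passed the filter on low counts. With edgeR, 0 were higher and 0 lower at NLS t6 against t0, and 1 was higher and 0 lower at NLS t48 against t0. In NLS t0 against LacZ t0, 0 were higher and 2 lower, and in NLS t48 against LacZ t48, 1 was higher and 2 lower. Krt14, a keratin of basal epithelia, was 2.02 ± 0.931 CPM in NLS t48 (SD, n = 3), against 0.209 ± 0.139 CPM in LacZ t48 (n = 2), a log2 change of 3.21 ± 0.66 (SE, adjusted p = 0.0013). In NLS t48 against t0 Krt14 gave 1.37 ± 0.46 (adjusted p = 0.0432), lost in 6 of 9 refits without a library or line (highest 0.21, without line 6) and with DESeq2 (0.051). Krt18, a keratin of simple epithelia, was 0.0148 ± 0.0255 CPM in NLS t0 (SD, n = 3), against 1.84 ± 0.349 CPM in LacZ t0 (n = 2), with an adjusted p of 5.38e-05. Pkp3, a desmosome protein, gave -2.98 ± 0.43 for NLS t0 against LacZ t0 (adjusted p = 8.98e-05) and -1.88 ± 0.47 for NLS t48 against LacZ t48 (adjusted p = 0.00523, and 0.215 without line 10). Cdh1 itself did not pass the filter. Of 25 mesenchymal genes, 22 were tested. At NLS t6 against t0, 2 were higher and 7 lower, and at t48 against t0, 14 were higher and 1 lower (medians -0.16 and 0.41). Col3a1, a fibrillar collagen, was 2853 ± 134 CPM in NLS t0, 1683 ± 49.8 CPM in NLS t6 and 5353 ± 244 CPM in NLS t48. It gave -0.76 ± 0.05 at t6 (adjusted p = 7.13e-07) and 0.91 ± 0.05 at t48 (adjusted p = 5.99e-08). Cdh2, N-cadherin, gave 0.48 ± 0.06 at t48 (adjusted p = 4.84e-05), while S100a4 gave -0.65 ± 0.07 (adjusted p = 1.47e-05). In LacZ t48 against t0, 7 were higher and 6 lower.

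Of 30 partners and regulators, 29 were tested, with 7 higher and 1 lower at NLS t6 and 5 and 4 at t48, against t0. Hmga2, an architectural factor that acts on Snai and Twist genes, was 95.7 ± 14.5 CPM in NLS t0, 159 ± 16.2 CPM in NLS t6 and 55.1 ± 1.33 CPM in NLS t48. It gave 0.73 ± 0.10 at t6 (adjusted p = 0.000244) and -0.79 ± 0.10 at t48 (adjusted p = 8.32e-05). In the LacZ lines it was 348 ± 24 CPM at t48 and 340.3 ± 14.4 CPM at t0. Of 28 other mesenchymal and neural crest factors, 20 were tested, with 6 higher and 2 lower at NLS t6 and 8 and 3 at t48. Sox11, a neural crest and progenitor factor, was 1.8 ± 0.474 CPM in NLS t0, 9.82 ± 1.0 CPM in NLS t6 and 19.9 ± 1.74 CPM in NLS t48. It gave 2.45 ± 0.18 at t6 and 3.47 ± 0.17 at t48 against t0 (adjusted p = 3.53e-06 and 1.02e-07). In the 4 LacZ libraries Sox11 had 0 reads.

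Of 16 genes that Sox9 activates in cartilage and matrix, 6 were tested. At NLS t6 against t0, 2 were higher and 0 lower, and at NLS t48 against t0, 3 were higher and 0 lower (list medians 0.15 and 1.48). Sox9 itself was called in neither by the main fit. With the cell line number as a block it was called in both, higher at t6 and lower at t48. Col2a1, the collagen of cartilage, was 8.87 ± 1.01 CPM in NLS t48 and 1.63 ± 0.329 CPM in NLS t0 (2.43 ± 0.26, adjusted p = 1.71e-05). In LacZ t48 it was 0.325 ± 0.17 CPM, against 2.49 ± 0.789 CPM in LacZ t0 (-2.94 ± 0.45, adjusted p = 0.00068, lost without line 12). Sox9 was higher there, by an edgeR call that was lost in a fit of the LacZ libraries alone (adjusted p = 0.139). The summed level of 4 chondrocyte markers was 1.87 to 2.71 CPM in NLS t0, 2.71 to 5.03 CPM in NLS t6 and 9.46 to 11.6 CPM in NLS t48, and 0.409 to 0.723 CPM in LacZ t48 and 2.2 to 3.2 CPM in LacZ t0, with Acan at most at 0.0444 CPM. Of 20 genes of the dedifferentiated melanoma state, 19 were tested, with 4 higher and 0 lower at NLS t6, and 4 and 4 at t48, against t0. Ngfr had the smallest adjusted p at t6, at a low level. It was 0.197 ± 0.0581 CPM in NLS t0, 2.13 ± 0.745 CPM in NLS t6 and 0.494 ± 0.103 CPM in NLS t48. Its log2 change at t6 was 3.40 ± 0.37 (adjusted p = 3.53e-05). Axl, a receptor kinase, was 367 ± 10.8 CPM in NLS t0, 469.8 ± 15.5 CPM in NLS t6 and 327 ± 13.8 CPM in NLS t48. Axl gave 0.36 ± 0.05 at t6 (adjusted p = 0.000237).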

How the data were processed

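Poly(A) RNA of 13 libraries (Trizol extraction, stranded paired-end TruSeq mRNA kit, per the labels' protocols) was quantified by the authors. The submitters' processing notes name Salmon 1.2.0 and GRCm38, without the transcript set or options. The deposited files hold estimated counts per transcript and TPM. Of 116546 transcripts, 99.51% matched GENCODE by identifier, and 0.121 to 0.165% of reads did not. Estimated counts were summed per gene, rounded, and tested with edgeR 4.0.16 (R 4.3.3): TMM, filterByExpr, a quasi-likelihood fit of 5 group means over all libraries, and Benjamini-Hochberg adjustment. DESeq2 1.42.0, its size factors, no filter, length-scaled counts, fits of the compared libraries alone, a block for the cell line number, and each library or line left out were tried. The numbers pair libraries because the labels make them cell lines. In the NLS lines, deviations from the group mean correlated at -0.00314 to 0.221 for same-numbered libraries (9 pairs) and at -0.195 to 0.046 for the others (18 pairs). In the LacZ lines same-numbered libraries gave -0.0289. With 2 libraries per group, the other LacZ pairs mirror this value, at 0.0289. Libraries of a group differed beyond sampling noise (chi-square per degree of freedom 7.11 to 24.5). The code was tested on simulated data. Members and lists were chosen with earlier results of these data known. Named list genes are up to 2 higher and 2 lower per list and comparison with the smallest adjusted p.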

Additional observations from a re-analysis of the deposited data

Results flagged for a closer look

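The t48 response of 2 of 9 factors differed between the NLS and LacZ lines when the difference itself was tested with edgeR. In that test 23.3% of all genes tested were called. For Sox9 the difference was -0.83 (SE 0.21, adjusted p = 0.014), with Sox9 lower in 3 of 3 NLS lines and higher in 2 of 2 LacZ lines at t48 than at t0. For Snai1 it was 0.44 (SE 0.14, adjusted p = 0.0387), with Snai1 higher in 3 of 3 NLS lines at t48 than at t0. In the LacZ lines Snai1 went from 72.2 to 71.5 CPM in line 10 and from 64.5 to 57.2 CPM in line 12. That LacZ change was not called (-0.09, adjusted p = 0.627). The Snai1 difference was not called with counts scaled for length (0.166) or in a fit of the compared libraries alone (0.0536). The Sox9 call was lost without LacZ t48 of line 10 (0.0691), LacZ t0 of line 12 (0.0698), line 7 (0.0589) or line 16 (0.0678). Of 15 refits of Snai1, each lacking 1 library or 1 line, 11 lost the call, with the highest adjusted p of 0.205 without LacZ t48 of line 12.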

How the results depend on the processing

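With the cell line number as a replicate block, the NLS t6 and NLS t48 comparisons against NLS t0 each called 4 of 9 factors, and 4527 and 5188 genes where the fit without it called 2716 and 3402. The block gave 4308 genes for LacZ t48 against LacZ t0 (2419 without it) and 4875 for the difference of the t48 responses (3045). No paired analysis was possible between NLS and LacZ groups of 1 time because no line number is shared. Fits of the compared libraries alone called 0 factors for LacZ t48 against LacZ t0 and 1 for the difference of the t48 responses. For NLS line 7 against line 6, DESeq2, length-scaled counts and no time label term each called 0 factors, and for LacZ line 12 against line 10 no filter called 1.

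With a library or line left out, called factors ranged from 1 to 3 for NLS t6 against t0, 1 to 3 for NLS t48 against t0, 3 to 6 for NLS t48 against t6, 0 to 1 for LacZ t48 against t0, 3 to 5 for NLS t0 against LacZ t0, 4 to 6 for NLS t48 against LacZ t48, 0 to 3 for the difference of the t48 responses, 0 to 2 for line 7 against 16 and 0 to 1 for line 7 against 6. Genes called ranged from 994 to 2817, 1592 to 3076, 2034 to 3333, 522 to 1290 and 1272 to 3176 for the NLS t6, NLS t48, t48 against t6, LacZ and difference comparisons, and from 1503 to 2474, 113 to 583, 596 to 1279 and 7 to 12 for lines 7 against 16, 6 against 16, 7 against 6 and 12 against 10. These 4 line comparisons called 2950, 295, 1446 and 16 genes in the full fit. Line 7 against 16 called 1675 with DESeq2, 1023 with length-scaled counts and 9 with no time label term. Line 6 against 16 called 72 and 1 in the last 2 of these, and line 7 against 6 called 835, 421 and 0. Line 12 against 10 called 45, 1 and 0, and 83 with no filter. Of 1350 fold changes of the factors, 1262 kept their side of the threshold, 53 lost and 35 gained the call. No called one changed sign, while 68 uncalled ones did. The cause of these shifts was not tested. Mitf, at 52 to 117 reads per library, is limited by depth.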
